A study of Homo sapiens with 6 samples.

Results

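The untreated baseline of the Ewing sarcoma lines A673 and SKNMC was described from 2 RNA-seq libraries, of 6 in the series. The genes taken were those on autosomes with more than 1 FPKM (fragments per kilobase of transcript, scaled to the mapped fragments of the library) in either DMSO library, which gave 11955 of the 27420 genes listed. Both are established cell lines, grown in DMEM with 10% FBS and treated with the vehicle DMSO for 6 h, and 1 library stands for each line. The titles spell the second line SKMNC. Although averages are mentioned in the name of the table, each of its columns traces to a single library by the labels, so every difference below is between a pair of libraries with no replicate check and no p-value. The other 4 libraries are the same lines after 6 h with the CDK7 inhibitor THZ1 at 50 nM or 200 nM, and they are used here only to set the line difference beside that of the untreated pair.

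Ewing sarcoma is a bone and soft tissue tumour driven by a fusion of EWSR1 with an ETS gene, most often FLI1. The EWS-FLI1 protein binds GGAA repeats and single ETS sites, switches on a set of genes that mark the tumour, and holds down others that belong to mesenchymal differentiation. Tumour cells carry features of neural crest and of mesenchymal stem cells, and lines differ in how much of each programme they show.

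Differences are log2((FPKM + 1) of A673 / (FPKM + 1) of SKNMC), so a positive value means a higher level in A673, and low values are pulled towards 0. Genes at 2-fold or more on this scale were called. Of the 11955 genes, 1008 were called higher in A673 (8.43%) and 1765 higher in SKNMC (14.8%). The other 9182 genes (76.8%) lay within 2-fold, and 56.1% lay within 1.5-fold. The median difference over all genes tested was -0.10, with quartiles at -0.62 and 0.38. A 4-fold difference was reached by 247 genes higher in A673 and 470 higher in SKNMC. Across these genes, which are not independent replicates, log2(FPKM + 1) in one line and the other had a Spearman rho of 0.865.

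The excess of genes higher in SKNMC lay among genes with low and moderate values. Where the mean of both libraries was at most 5 FPKM, 931 of 3287 genes were called higher in SKNMC (28.3%) and 324 higher in A673 (9.86%). Between 5 and 20 FPKM the counts were 594 (13.5%) and 341 (7.76%) of 4397. Between 20 and 100 FPKM they were 214 and 273 of 3509, so the order was turned from this level on. Above 100 FPKM, 70 of 762 genes were higher in A673 (9.19%) and 26 higher in SKNMC (3.41%). These counts include genes that passed the filter through 1 library alone. Among the 10215 genes above 1 FPKM in both libraries, 710 were higher in A673 and 901 in SKNMC. They were not counted by level, so the part of the filter in the excess at low values was not tested.

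FPKM is a share of a library, so the split also depends on the scale on which the libraries are set. The listed FPKM summed to 458652 in A673 and 462997 in SKNMC. Of all called genes, 36.4% were higher in A673. When the values of each library were set relative to the median level of ribosomal protein genes, the median of all genes moved by 0.45 to 0.35, and 2198 genes were higher in A673 against 1107 in SKNMC, so 66.5% of called genes were higher in A673. This is called ribosomal scaling below, and results with it are given beside each gene list with at least 5 members tested. A gene can also be tested through the line in which it is high, so counts of members above 1 FPKM in both libraries are added for these lists where that filter leaves fewer members. Over all genes that filter left 10215, with 710 higher in A673 and 901 in SKNMC, against which those counts are to be read. Counts over all members tested are to be read against 8.43% and 14.8% of all genes.

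**Figure D1:**
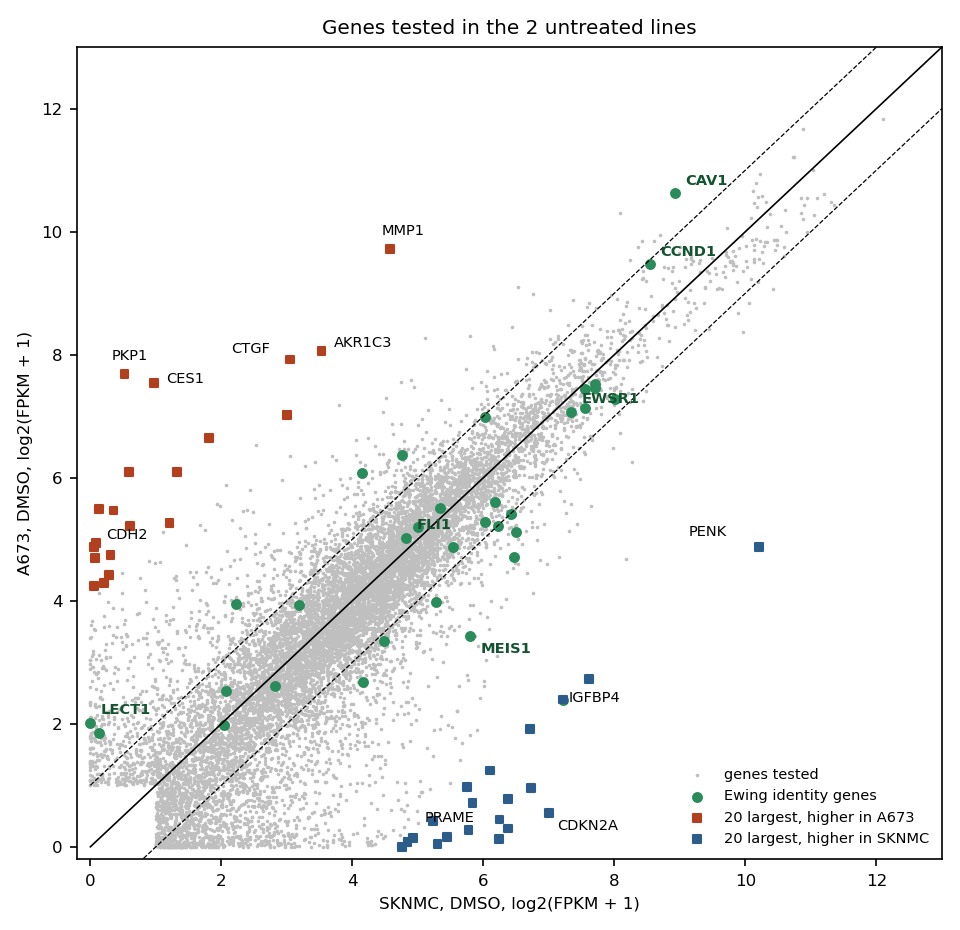
Each point is 1 of the 11955 genes tested, with log2(FPKM + 1) in SKNMC on the x axis and in A673 on the y axis, both with DMSO. The solid line marks equal levels and the dashed lines 2-fold, green points are Ewing identity genes, and squares are the 20 genes with the largest difference in each direction, which reach from a log2 difference of 7.16 (PKP1) to -6.45 (CDKN2A).

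Most genes listed as marks of Ewing sarcoma were above 1 FPKM in both lines. Of 35 such genes, 33 were above 1 FPKM in A673 and 31 in SKNMC. Of all 26346 autosomal genes listed, 10700 passed this level in A673 and 11470 in SKNMC. Members were chosen with earlier results of these data known. Some, such as MEIS1 and APCDD1, are among super-enhancer genes that the paper drew from lines including A673 and SKNMC. The count therefore cannot test whether the lines share a programme. The fusion partner FLI1 stood at 31.5 FPKM in A673 and 27.3 in SKNMC, a difference of 0.20. Its other partner, EWSR1, an RNA-binding protein of the FET family, was at 134 FPKM in A673 and 161 in SKNMC. The table gives 1 value per gene, so reads of the fusion transcript and of the unrearranged copies cannot be told apart. Neither gene was called.

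Several identity genes were near equal between the lines. STEAP1, a protein of the cell surface, was at 175 FPKM in A673 and 208 in SKNMC, and its relative STEAP2 at 35.6 FPKM in A673 and 31.1 in SKNMC. APCDD1, an inhibitor of WNT signalling, stood at 173 FPKM in A673 and 187 in SKNMC, a difference of -0.11. CITED2, a CBP/p300-binding coregulator, reached 183 FPKM in A673 and 208 in SKNMC. IGF2BP1, an RNA-binding protein of fetal tissue, was at 44.2 FPKM in A673 and 39.2 in SKNMC, and ID2, an inhibitor of bHLH factors, at 139 FPKM in A673 and 187 in SKNMC. The Hedgehog effector GLI1 was low in both, at 2.95 FPKM in A673 and 3.10 in SKNMC. These genes were picked here for their near-equal values.

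Other identity genes set the lines apart. In all, 8 of the 33 tested were called higher in SKNMC and 6 higher in A673, and their median of -0.21 turned to 0.24 with ribosomal scaling (4 higher in SKNMC and 9 in A673). Of 31 members above 1 FPKM in both libraries, 8 were higher in SKNMC and 4 in A673, with a median of -0.25. The neuropeptide gene CCK had the largest gap, at 4.26 FPKM in A673 and 148 in SKNMC. MEIS1, a TALE homeobox factor that partners HOX proteins, was at 9.72 FPKM in A673 and 54.7 in SKNMC, a difference of -2.38. NKX2-2, the homeobox repressor used as a diagnostic marker of the tumour, was at 14.8 FPKM in A673 and 37.6 in SKNMC. It was called higher in SKNMC but was well above 1 FPKM in each line. The protein phosphatase inhibitor PPP1R1A stood at 25.3 FPKM in A673 and 87.7 in SKNMC, the phosphatase PTPN13 at 33.7 FPKM in A673 and 89.3 in SKNMC, and the SOXD factor SOX6 at 5.39 FPKM in A673 and 16.97 in SKNMC. BCL11B, a zinc finger repressor, and EZH2, the methyltransferase of Polycomb complexes, also passed 2-fold, with differences of -1.14 and -1.01.

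In the other direction, the caveolar coat gene CAV1 was the most abundant identity gene of both lines, at 1577 FPKM in A673 and 485 in SKNMC. The glutathione transferase GSTM4 was at 66.6 FPKM in A673 and 16.6 in SKNMC; it has close relatives in the GSTM family, among which reads can be split. LIPI, a lipase known as a cancer-testis antigen of Ewing sarcoma, stood at 81.4 FPKM in A673 and 25.9 in SKNMC, and UPP1, which cleaves uridine, at 14.4 FPKM in A673 and 3.68 in SKNMC. TERT, the catalytic part of telomerase, was at 2.62 FPKM in A673 and 0.0980 in SKNMC. LECT1 (chondromodulin), a cartilage glycoprotein, was at 3.04 FPKM in A673 and listed at 0 in SKNMC. CCND1, the cyclin that opens the G1 phase, was at 711 FPKM in A673 and 370.2 in SKNMC and HOOK1, a microtubule linker, at 126 FPKM in A673 and 63.9 in SKNMC, both just short of 2-fold.

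The remaining identity genes were closer. NPY1R and NPY5R, receptors of neuropeptide Y, differed by -0.99 and -0.21. LINGO1, a neuronal surface protein, was at 37.7 FPKM in A673 and 64.1 in SKNMC, the kinase PRKCB at 47.9 FPKM in A673 and 71.6 in SKNMC and the cytokine-receptor kinase JAK1 at 154 FPKM in A673 and 256 in SKNMC. DKK2, a secreted WNT modulator, was at 28.4 FPKM in A673 and 45.6 in SKNMC. The growth factor PDGFC differed by 0.75 and the phospholipase PLD2 by 0.46. SOX5 and MFNG, the fringe glycosyltransferase, did not pass 1 FPKM in either line.

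**Figure D2:**
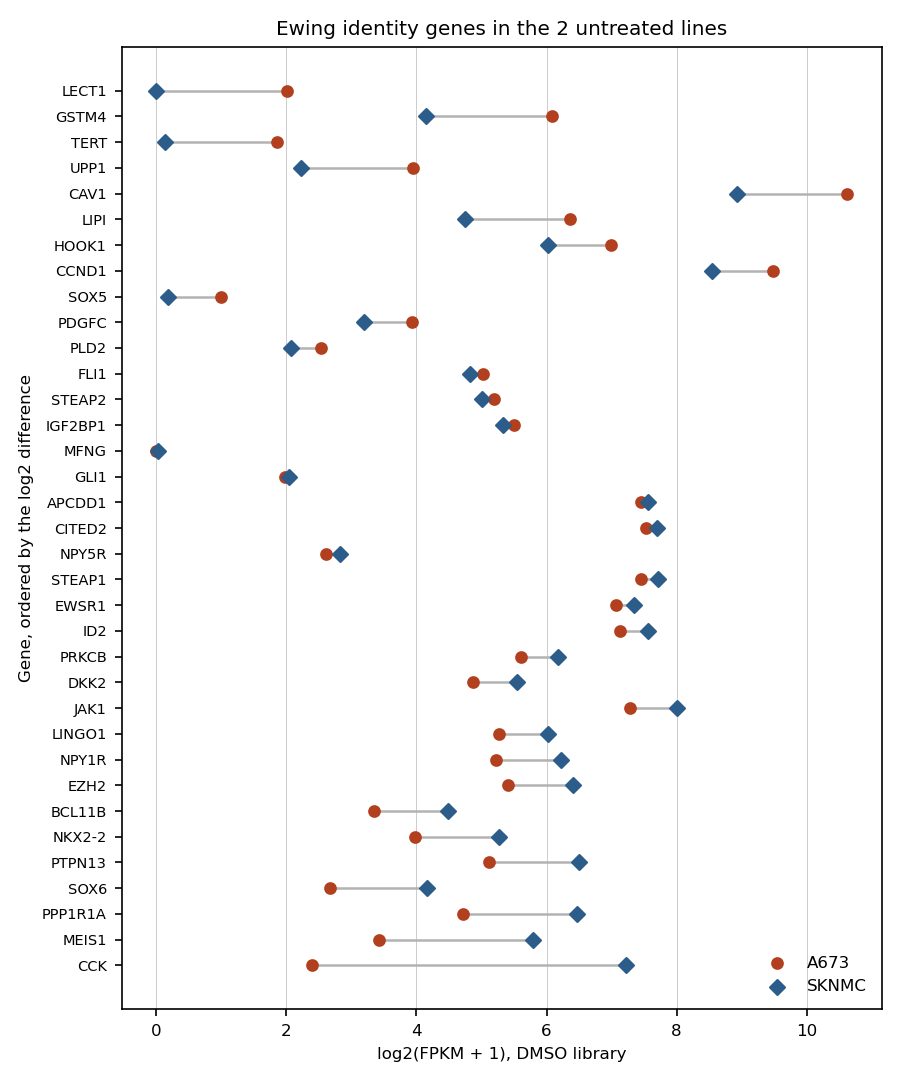
Each row is 1 of the 35 Ewing identity genes, with log2(FPKM + 1) in the DMSO library of A673 (circle) and SKNMC (diamond) on the x axis, ordered by their difference. FLI1, EWSR1, STEAP1 and APCDD1 have near-equal pairs, while CCK and MEIS1 lie to the right in SKNMC and CAV1 and GSTM4 in A673.

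Genes that EWS-FLI1 is known to hold down went both ways. Of 15 tested, 6 were higher in A673 and 4 higher in SKNMC, with a median of 0.50. With ribosomal scaling, 4 were higher in SKNMC and 7 in A673, and the median was 0.99. Of 12 members above 1 FPKM in both libraries, 4 were higher in SKNMC and 4 in A673, with a median of 0.42. TGFBR2, the type II receptor of TGF-beta, was at 19.2 FPKM in A673 and 1.49 in SKNMC. PHLDA1, an ERK-induced gene, was at 6.49 FPKM in A673 and 0.485 in SKNMC, and the CDK inhibitor CDKN1A at 11.5 FPKM in A673 and 5.16 in SKNMC. The IGF-binding protein genes IGFBP5 and IGFBP3 lay the other way, at 1.05 FPKM in A673 and 15.7 in SKNMC for the former and 1.28 FPKM in A673 and 6.30 in SKNMC for the latter. The forkhead factor FOXO1 was also higher in SKNMC, with a difference of -1.46. LOX, which crosslinks collagen, was close to equal at 20.2 FPKM in A673 and 21.7 in SKNMC.

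Among ETS transcription factors, the family of FLI1, 4 of 16 tested were higher in A673 and 0 higher in SKNMC, against 8.43% and 14.8% of all genes, with a median of 0.10. With ribosomal scaling, 0 were higher in SKNMC and 5 in A673, and the median was 0.55. Of 13 members above 1 FPKM in both libraries, 0 were higher in SKNMC and 2 in A673, with a median of 0.03. ETS1 was at 7.51 FPKM in A673 and 0.228 in SKNMC, ETV1 at 21.96 FPKM in A673 and 2.98 in SKNMC, ETV4 at 6.11 FPKM in A673 and 0.281 in SKNMC and ELK3 at 42.5 FPKM in A673 and 12.5 in SKNMC. ETV1 and ETV4 belong to the PEA3 group, whose expression follows ERK signalling. Their relative ETV5 did not differ, at 18.6 FPKM in A673 and 18.5 in SKNMC. ERF, an ETS repressor, was the most abundant of the family in both lines, at 64.6 FPKM in A673 and 97.7 in SKNMC.

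Among genes above 10 FPKM in 1 of the libraries, the 20 with the largest difference in each direction reached a log2 size of at least 4.01 towards A673 and 4.76 towards SKNMC. The desmosomal plaque gene PKP1 (chr1:201252579-201302121, hg19) led towards A673, at 205 FPKM in A673 and 0.434 in SKNMC. CES1, a carboxylesterase with a nearby pseudogene copy, was at 185 FPKM in A673 and 0.956 in SKNMC, and CAPG, which caps actin filaments, at 67.5 FPKM in A673 and 0.508 in SKNMC. AKR1C3, a reductase of steroids and prostaglandins in a cluster of close relatives, stood at 265 FPKM in A673 and 10.5 in SKNMC. PKP1 and CAPG belong to cell junctions and the cytoskeleton, and CES1 and AKR1C3 to lipid and steroid metabolism.

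Neuronal and muscle-type genes were also among the 20 of A673. KIF1A, a motor of axonal transport, was at 44.01 FPKM in A673 and 0.0974 in SKNMC, and DAB1, the adaptor of reelin signalling, at 37.4 FPKM in A673 and 1.31 in SKNMC. SHISA6, an auxiliary subunit of AMPA receptors, was at 17.9 FPKM in A673 and 0.0356 in SKNMC. The bHLH repressor MSC (musculin) reached 43.2 FPKM in A673 and 0.278 in SKNMC, the homeobox gene BARX2 28.3 FPKM in A673 and 0.0362 in SKNMC, and TAGLN, an actin-binding protein of smooth muscle, 128 FPKM in A673 and 7.002 in SKNMC. HCLS1, an actin regulator of blood cells, was at 36.1 FPKM in A673 and 0.519 in SKNMC. FXYD5, a regulator of the sodium pump, was at 25.8 FPKM in A673 and 0.238 in SKNMC. The giant cadherin FAT1 was at 18.6 FPKM in A673 and 0.156 in SKNMC, and PTX3, a secreted pentraxin of innate immunity, at 67.3 FPKM in A673 and 1.51 in SKNMC.

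In SKNMC the list was led by CDKN2A (chr9:21967750-21995300, hg19), which encodes the CDK inhibitor INK4A and, in another frame, ARF. It stood at 0.459 FPKM in A673 and 127 in SKNMC. PRSS21, a serine protease of testis, was at 0.0943 FPKM in A673 and 74.5 in SKNMC, PRAME, a cancer-testis antigen, at 0.228 FPKM in A673 and 81.7 in SKNMC, and CTCFL, the germ cell relative of CTCF, at 0.0293 FPKM in A673 and 38.4 in SKNMC. PRSS21, PRAME and CTCFL are known mainly from germ cells and tumours.

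The opioid precursor gene PENK was the most abundant of the 20, at 28.4 FPKM in A673 and 1184 in SKNMC. TFAP2B, a neural crest transcription factor, was at 0.361 FPKM in A673 and 74.9 in SKNMC, MAPT, which encodes tau, at 0.953 FPKM in A673 and 52.9 in SKNMC, and HAP1, a partner of huntingtin, at 0.118 FPKM in A673 and 42.6 in SKNMC. FABP7, the brain lipid-binding protein, was at 0.0548 FPKM in A673 and 27.7 in SKNMC. ASS1, the argininosuccinate synthase of the urea cycle, was at 2.77 FPKM in A673 and 104 in SKNMC, the selenium carrier SEPP1 at 0.941 FPKM in A673 and 104.6 in SKNMC, the microsomal glutathione transferase MGST1 at 0.643 FPKM in A673 and 55.99 in SKNMC and the protease inhibitor A2M at 0.339 FPKM in A673 and 36.4 in SKNMC. MXRA8, an adhesion molecule of the cell surface, was at 0.212 FPKM in A673 and 53.7 in SKNMC.

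**Figure D3:**
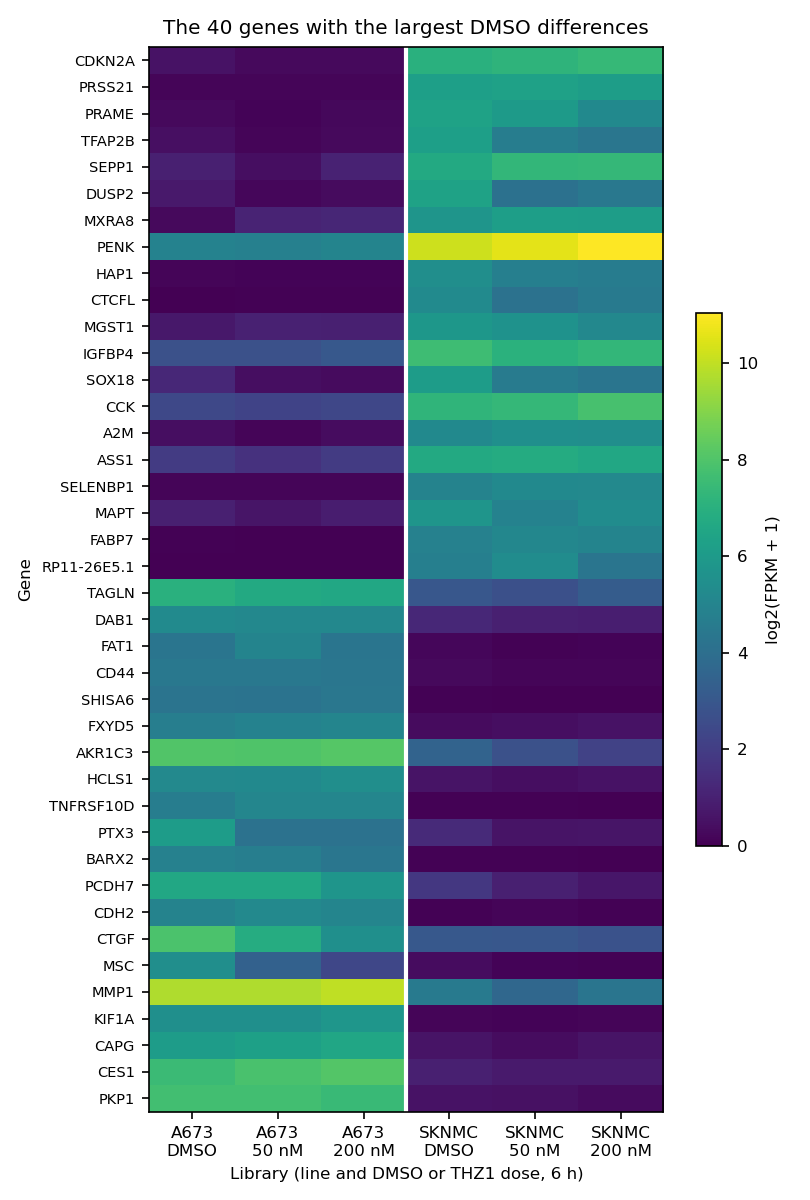
The 40 genes with the largest DMSO differences are shown in the 6 libraries, with colour giving log2(FPKM + 1). One set of 20 is higher in the 3 SKNMC libraries and the other 20 in the 3 A673 libraries, at every dose.

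Neural and neural crest genes differed in both directions. Of 47 genes, 35 passed 1 FPKM, of which 16 were higher in SKNMC and 10 higher in A673, with a median of -0.59. With ribosomal scaling, 12 were higher in SKNMC and 11 in A673, and the median was -0.12. Of 20 members above 1 FPKM in both libraries, 7 were higher in SKNMC and 5 in A673, with a median of -0.05. Summed over the list, the level was 952 FPKM in A673 and 1088 in SKNMC. The most abundant member was UCHL1, a neuronal deubiquitinase, at 477 FPKM in A673 and 483 in SKNMC. Higher in SKNMC besides TFAP2B and MAPT, the homeobox gene MSX2 was at 0.924 FPKM in A673 and 35.5 in SKNMC. The tubulin regulator STMN4 was at 0.0840 FPKM in A673 and 12.03 in SKNMC. Other members were higher in A673. SYT1, the calcium sensor of synaptic vesicles, was at 46.8 FPKM in A673 and 2.84 in SKNMC, the neuronal tubulin TUBB3 at 156 FPKM in A673 and 21.7 in SKNMC, and NEFM, a neurofilament subunit, at 6.57 FPKM in A673 and 0.0134 in SKNMC. TUBB3 is listed under more than 1 entry, of which the entry with the higher level was taken. ZIC2 and STMN3 were within 2-fold, at 42.6 FPKM in A673 and 48.7 in SKNMC for the former and 67.6 FPKM in A673 and 52.8 in SKNMC for the latter. SOX10 and NEUROD1, which define neural crest or committed neurons and were singled out after their values were seen, were listed at 0 in both lines. A value of 0 in this table need not mean absence: EEF1A1, the translation elongation factor, also singled out after its values were seen, was at 3646 FPKM in A673 and 4400.0 in SKNMC with DMSO and was listed at 0 in both THZ1 libraries of SKNMC.

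Of 16 markers of the sympathoadrenal lineage, 7 passed 1 FPKM, with 1 higher in SKNMC and 2 higher in A673. The median of -0.31 turned to 0.04 with ribosomal scaling. With ribosomal scaling, 1 was higher in SKNMC and 2 in A673. Of 5 members above 1 FPKM in both libraries, 0 were higher in SKNMC and 1 in A673, with a median of -0.31. RET, the receptor of GDNF-family ligands, was at 6.57 FPKM in A673 and 0.0230 in SKNMC, and HAND2, a bHLH factor, at 11.9 FPKM in A673 and 4.60 in SKNMC. GATA2 led in level, at 28.97 FPKM in A673 and 47.9 in SKNMC.

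Mesenchymal genes also lay in both directions. Of 28 tested, 12 were higher in A673 and 9 higher in SKNMC, with a median of 0.54. Of 20 members above 1 FPKM in both libraries, 4 were higher in SKNMC and 10 in A673, with a median of 0.97. With ribosomal scaling, 6 were higher in SKNMC and 14 in A673, and the median was 0.98. In bulk RNA, fewer cells with a transcript and less of it per cell cannot be told apart. Some of the most abundant members were higher in A673. VIM, the intermediate filament of mesenchymal cells, was at 1267 FPKM in A673 and 271 in SKNMC, the membrane-binding annexins ANXA1 at 508 FPKM in A673 and 107 in SKNMC and ANXA2 at 918 FPKM in A673 and 343 in SKNMC, and the hyaluronan receptor CD44 at 20.3 FPKM in A673 and 0.213 in SKNMC. Smooth muscle actin, ACTA2, was at 32.7 FPKM in A673 and 4.69 in SKNMC, and the galectin LGALS1 at 457 FPKM in A673 and 194 in SKNMC. Other members were higher in SKNMC. PRRX1, a homeobox factor of limb mesenchyme, was at 0.123 FPKM in A673 and 19.7 in SKNMC, TWIST1, the bHLH factor of mesoderm and neural crest, at 24.2 FPKM in A673 and 115 in SKNMC, and SNAI1, a repressor of E-cadherin, at 1.31 FPKM in A673 and 11.1 in SKNMC. FAP, a fibroblast protease, was also higher in SKNMC, at 0.169 FPKM in A673 and 3.57 in SKNMC.

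Bone and cartilage genes were few. Of 17, 6 passed 1 FPKM, with 3 higher in A673 and 2 higher in SKNMC and a median of 1.06. With ribosomal scaling, 2 were higher in SKNMC and 3 in A673, and the median was 1.37. Of 2 members above 1 FPKM in both libraries, 1 was higher in SKNMC and 0 in A673, with a median of -1.57. The homeobox factor DLX5 was at 23.95 FPKM in A673 and 0.867 in SKNMC and its neighbour DLX6 at 4.13 FPKM in A673 and 0.604 in SKNMC. SOX9, the factor of chondrocytes, was at 5.46 FPKM in A673 and 0.321 in SKNMC. On the other side, ALPL, the alkaline phosphatase of mineralising bone, was at 2.85 FPKM in A673 and 45.1 in SKNMC and the parathyroid hormone receptor PTH1R at 0.0862 FPKM in A673 and 4.12 in SKNMC. RUNX2, the factor of osteoblasts, was low in both at 2.20 FPKM in A673 and 1.36 in SKNMC.

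Most markers of other cell types did not pass 1 FPKM, with a few abundant exceptions. Of 17 skeletal muscle genes, 1 passed 1 FPKM, the slow troponin gene TNNT1, at 22.3 FPKM in A673 and 50.5 in SKNMC, and it made up nearly all of the summed 22.7 FPKM in A673 and 51.5 in SKNMC. MYOG and MYF5, defining factors of muscle singled out after their values were seen, were listed at 0 in both lines. Of 20 blood and endothelial genes, 2 passed. PTPRC (CD45) was at 0.0201 FPKM in A673 and 10.2 in SKNMC, and CD68 at 2.29 FPKM in A673 and 0.215 in SKNMC. The list summed to 3.23 FPKM in A673 and 11.3 in SKNMC, and CD3E, HBB and VWF, which define T cells, red cells and endothelium and were chosen after their values were seen, were listed at 0 in both. The part of such cells in the PTPRC value was not tested. Of 19 epithelial genes, 5 passed (1 higher in SKNMC and 0 in A673), with a median of -0.08 that turned to 0.36 with ribosomal scaling, and with 286 and 275 FPKM summed in A673 and SKNMC. With ribosomal scaling, 1 was higher in SKNMC and 0 in A673. Of 4 members above 1 FPKM in both libraries, 0 were higher in SKNMC and 0 in A673, with a median of -0.04. Most of it came from the claudin CLDN1, at 141 FPKM in A673 and 109 in SKNMC, and the keratin KRT18, at 125 FPKM in A673 and 143 in SKNMC. E-cadherin (CDH1, chosen after its value was seen) was listed at 0 in both.

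HOX genes, which set position along the body axis, were expressed mainly from the HOXD cluster. Of 39 listed, 24 were tested, 4 were higher in A673 and 6 higher in SKNMC, and the median of -0.09 turned to 0.28 with ribosomal scaling (4 higher in SKNMC and 5 in A673). Of 20 members above 1 FPKM in both libraries, 4 were higher in SKNMC and 3 in A673, with a median of -0.03. HOXD13 led in both lines, at 43.2 FPKM in A673 and 92.8 in SKNMC, and HOXD11 was near it in A673, at 41.5 FPKM in A673 and 29.9 in SKNMC. HOXD8 and HOXD9 were higher in A673, with differences of 2.02 and 1.98, and HOXB2 stood at 8.87 FPKM in A673 and 0.555 in SKNMC. HOXC11 and HOXA10 were higher in SKNMC, at 2.18 FPKM in A673 and 13.3 in SKNMC for the former and 0.0929 FPKM in A673 and 3.004 in SKNMC for the latter. HOX genes overlap antisense transcripts, and whether strand was used is not stated.

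Among SOX factors, which direct lineage choice, 2 of 10 tested were higher in A673 and 3 higher in SKNMC, with a median of -0.27 that turned to 0.14 with ribosomal scaling. With ribosomal scaling, 3 were higher in SKNMC and 2 in A673. Of 8 members above 1 FPKM in both libraries, 3 were higher in SKNMC and 0 in A673, with a median of -0.52. SOX18, known from endothelium, was at 1.36 FPKM in A673 and 67.6 in SKNMC. SOX1, of the early neural plate, was at 11.8 FPKM in A673 and 0.0212 in SKNMC. SOX4, of neural and mesenchymal progenitors, was near equal, at 38.5 FPKM in A673 and 35.5 in SKNMC, and SOX12, of the same group, was higher in SKNMC, at 14.2 FPKM in A673 and 54.3 in SKNMC. SOX11 and SOX2, a factor of stem cells, were within 2-fold, with differences of -0.03 and -0.59.

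The matrix that the lines transcribe differed in its make-up. Of 23 collagen genes tested, 10 were called higher in SKNMC and 2 higher in A673, against 14.8% and 8.43% of all genes, and the median of -0.28 turned to 0.20 with ribosomal scaling (6 higher in SKNMC and 3 in A673). Of 16 members above 1 FPKM in both libraries, 5 were higher in SKNMC and 0 in A673, with a median of -0.01. COL9A2, of the cartilage-type collagen IX, was at 2.05 FPKM in A673 and 34.2 in SKNMC, the fibril-associated COL16A1 at 12.3 FPKM in A673 and 65.7 in SKNMC and COL6A3, of microfibrillar collagen VI, at 0.920 FPKM in A673 and 6.92 in SKNMC. COL1A1 and COL1A2 encode the chains of collagen I, and their ratio differed between the lines. COL1A1 was at 9.04 FPKM in A673 and 30.4 in SKNMC, while COL1A2 was at 88.8 FPKM in A673 and 62.6 in SKNMC. COL5A3 was the gene with the largest difference towards A673, at 6.68 FPKM in A673 and 0.149 in SKNMC.

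Laminins and basement membrane genes gave 3 of 12 higher in SKNMC, where 14.8% of all genes were, and 0 higher in A673, with a median of 0.22. Of 9 members above 1 FPKM in both libraries, 1 was higher in SKNMC and 0 in A673, with a median of 0.25. With ribosomal scaling, 3 were higher in SKNMC and 2 in A673, and the median was 0.65. LAMA5 was at 1.45 FPKM in A673 and 8.31 in SKNMC and perlecan, HSPG2, at 0.560 FPKM in A673 and 4.62 in SKNMC. The chains LAMB1 and LAMC1, which pair with many alpha chains, were within 2-fold, with differences of 0.53 and 0.78.

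Matrix glycoproteins and proteoglycans held some of the strongest differences in both directions. Of 33 tested, 12 were higher in A673 and 8 higher in SKNMC, and their median of -0.04 turned to 0.45 with ribosomal scaling (7 higher in SKNMC and 14 in A673). Of 22 members above 1 FPKM in both libraries, 3 were higher in SKNMC and 10 in A673, with a median of 0.84. Fibronectin, FN1, was at 550.2 FPKM in A673 and 91.4 in SKNMC, and SPARC, a collagen-binding glycoprotein, at 431 FPKM in A673 and 209 in SKNMC. TGFBI, induced by TGF-beta, was at 81.1 FPKM in A673 and 7.27 in SKNMC, the syndecan SDC2 at 144 FPKM in A673 and 12.8 in SKNMC and ECM1 at 22.3 FPKM in A673 and 2.46 in SKNMC. The small leucine-rich proteoglycans DCN and LUM, which bind collagen fibrils, were instead higher in SKNMC. Of the same family, ASPN, FMOD, OGN and PRELP did not pass 1 FPKM in either line. Decorin, DCN, was at 0.309 FPKM in A673 and 30.9 in SKNMC and lumican, LUM, at 0.210 FPKM in A673 and 23.5 in SKNMC. MFAP4, of elastic microfibrils, was the most abundant member in SKNMC, at 24.6 FPKM in A673 and 287 in SKNMC, and THBS2 was at 0.115 FPKM in A673 and 7.59 in SKNMC. FBLN1 was the same in both, at 41.3 FPKM in A673 and 42.4 in SKNMC.

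Enzymes that cut or crosslink matrix leaned to A673, with 12 of 31 called that way and 3 the other way. Of all genes, 8.43% and 14.8% were so called. The median of the list was 0.95. Of 19 members above 1 FPKM in both libraries, 1 was higher in SKNMC and 7 in A673, with a median of 0.84. With ribosomal scaling, 3 were higher in SKNMC and 19 in A673. The interstitial collagenase MMP1 (chr11:102660650-102668891, hg19) was at 839 FPKM in A673 and 22.7 in SKNMC. MMP10 (stromelysin), its neighbour in a cluster, was at 9.74 FPKM in A673 and 0.473 in SKNMC, while MMP13, in the same cluster, was higher in SKNMC, at 0.0559 FPKM in A673 and 9.09 in SKNMC. The urokinase gene PLAU was at 6.55 FPKM in A673 and 0.295 in SKNMC and LOXL1, which crosslinks elastin, at 80.7 FPKM in A673 and 11.9 in SKNMC. TIMP3, an inhibitor of metalloproteinases bound to matrix, was at 0.470 FPKM in A673 and 35.3 in SKNMC, and TIMP2 at 56.8 FPKM in A673 and 24.01 in SKNMC. The protease inhibitor SERPINE2 was the most abundant of this list in SKNMC, at 501 FPKM in A673 and 245 in SKNMC.

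Integrins, the matrix receptors, had a few large differences. Of 15 integrin genes, 3 were higher in A673 and 4 higher in SKNMC, with a median of 0.33. Of 8 members above 1 FPKM in both libraries, 0 were higher in SKNMC and 2 in A673, with a median of 0.67. With ribosomal scaling, 3 were higher in SKNMC and 6 in A673, and the median was 0.81. The common beta chain ITGB1 was at 137 FPKM in A673 and 59.1 in SKNMC, and ITGB8 at 2.98 FPKM in A673 and 0.201 in SKNMC. ITGA4, a receptor chain for fibronectin and VCAM1, was at 0.977 FPKM in A673 and 13.1 in SKNMC, and ITGA6, a laminin receptor chain, at 0.499 FPKM in A673 and 2.65 in SKNMC. ITGAV and ITGA5 lay within 2-fold, with differences of 0.44 and 0.33.

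Cadherins, which join cells, gave 4 of 9 higher in A673 and 2 higher in SKNMC, with a median of 0.41. With ribosomal scaling, 1 was higher in SKNMC and 4 in A673, and the median was 0.85. Of 7 members above 1 FPKM in both libraries, 1 was higher in SKNMC and 3 in A673, with a median of 0.41. N-cadherin, CDH2, was at 29.7 FPKM in A673 and 0.0611 in SKNMC, while CDH11, the cadherin of osteoblasts and mesenchyme, was at 63.3 FPKM in A673 and 134 in SKNMC. CDH11 was thus the leading cadherin of both lines, and CDH2 was nearly absent from SKNMC. CDH24 and CDH4 were also higher in A673, with differences of 1.40 and 1.13. Protocadherins gave 13 of 26 higher in A673 and 3 higher in SKNMC, with a median of 1.05. With ribosomal scaling, 1 was higher in SKNMC and 14 in A673, and the median was 1.32. Of 13 members above 1 FPKM in both libraries, 2 were higher in SKNMC and 4 in A673, with a median of 0.10. PCDH7, a gene outside the clusters, was at 98.6 FPKM in A673, with a difference of 4.83. PCDHGA6 was at 13.7 FPKM in A673 and 0.269 in SKNMC and PCDHGC3 at 40.1 FPKM in A673 and 9.43 in SKNMC. Members of the alpha and gamma clusters share 3-prime exons, so their single values are uncertain. PCDH18 and PCDH8 were higher in SKNMC, with differences of -1.51 and -1.22.

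Target genes of YAP and TAZ, which carry signals of cell tension and contact through TEAD factors, had more members higher in A673, with none the other way, than any other list. All 23 genes on the list of targets and pathway members were tested, 11 were higher in A673 and 0 higher in SKNMC, with a median of 0.97 against -0.10 over all genes. With ribosomal scaling, 0 were higher in SKNMC and 16 in A673, and the median was 1.41. CTGF (CCN2), a matricellular protein, was at 241 FPKM in A673 and 7.23 in SKNMC, and CYR61 (CCN1), of the same family, at 191 FPKM in A673 and 28.7 in SKNMC. ANKRD1, a titin-associated repeat protein, stood at 23.7 FPKM in A673 and 1.08 in SKNMC, and CRIM1 at 62.9 FPKM in A673 and 14.6 in SKNMC. The caveolar genes CAV1 and CAV2 are also on the list, and CAV2 was at 187 FPKM in A673 and 61.3 in SKNMC. Among TEAD genes, differences were -0.25 for TEAD1, -0.47 for TEAD2 and 0.36 for TEAD3, all within 2-fold. CTGF and CYR61 also belong to the list of genes that EWS-FLI1 holds down, so these lists are not independent.

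Some promoters of the list hold the letters that TEAD factors bind, and those of CTGF and ANKRD1 are shown as the members with the largest difference that have an entry. The RefSeq promoter table (GRCh38.p14, 250 bases before to 50 bases after a gene's start) held an entry for 18 of the 23 genes, fewer than 80%, so no share is read over the list. The motif GGAATG, searched on both strands, is in 14.05% of the 27305 promoters of the table, counting the first listed for each gene. The CTGF promoter held 3 copies (chr6:131951323-131951622, minus strand) and that of ANKRD1 held 2 (chr10:90921038-90921337, minus strand), in capitals below, 5-prime to 3-prime. The promoters of CAV1 and CAV2, and those of AJUBA and AMOTL2, members looked up after their values were seen, held no copy. A match is a description of the letters and not of binding.
CTGF: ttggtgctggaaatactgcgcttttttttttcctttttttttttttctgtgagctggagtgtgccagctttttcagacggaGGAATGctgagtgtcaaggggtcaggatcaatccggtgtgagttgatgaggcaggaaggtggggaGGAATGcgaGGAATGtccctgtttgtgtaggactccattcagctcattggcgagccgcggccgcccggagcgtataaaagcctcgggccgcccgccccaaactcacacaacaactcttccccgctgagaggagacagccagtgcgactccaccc
ANKRD1: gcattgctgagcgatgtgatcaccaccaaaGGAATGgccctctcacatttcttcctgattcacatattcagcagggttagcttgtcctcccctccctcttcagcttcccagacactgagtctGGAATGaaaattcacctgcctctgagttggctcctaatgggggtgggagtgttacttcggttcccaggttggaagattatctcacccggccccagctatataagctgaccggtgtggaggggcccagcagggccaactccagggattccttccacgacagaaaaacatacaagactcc

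Feedback genes of the MAP kinase pathway, which ERK switches on and which restrain it, were higher in A673 in 11 of 25 cases and higher in SKNMC in 5, with a median of 0.85. Of 19 members above 1 FPKM in both libraries, 4 were higher in SKNMC and 7 in A673, with a median of 0.52. With ribosomal scaling, 3 were higher in SKNMC and 14 in A673. The ERK phosphatase DUSP6 was at 91.4 FPKM in A673 and 4.75 in SKNMC, and DUSP5, which acts on nuclear ERK, at 19.99 FPKM in A673 and 2.59 in SKNMC. FOSL1, an AP-1 subunit, was at 19.7 FPKM in A673 and 1.42 in SKNMC, a difference of 3.10 that turned to -0.39 in the pair at 200 nM THZ1. ETV4 and PHLDA1, named above, belong here too. SKNMC had another phosphatase in the lead: DUSP2 was at 0.706 FPKM in A673 and 81.7 in SKNMC and DUSP7 at 14.3 FPKM in A673 and 56.2 in SKNMC. EGR2, an immediate early zinc finger factor, was also higher there, with a difference of -1.33.

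Receptor tyrosine kinases and their ligands had 7 of 32 called in each direction. This even split depended on the handling: with ribosomal scaling, 3 were higher in SKNMC and 11 in A673, and among 25 members above 1 FPKM in both libraries 5 were higher in SKNMC and 2 in A673. KIT, the stem cell factor receptor, was at 5.48 FPKM in A673 and 63.1 in SKNMC, and ERBB2 at 5.43 FPKM in A673 and 16.01 in SKNMC. Towards A673 lay the EGF-family ligand HBEGF, at 14.7 FPKM in A673 and 0.802 in SKNMC, the VEGF receptor FLT1, at 9.98 FPKM in A673 and 0.464 in SKNMC, and ANGPT1, the ligand of TIE2, at 3.84 FPKM in A673 and 0.0594 in SKNMC. The growth factor midkine, MDK, was the most abundant in both lines, at 130.1 FPKM in A673 and 268 in SKNMC. GDNF was at 1.59 FPKM in A673 and 11.1 in SKNMC, so the line with the lower level of RET had the higher level of this ligand. Of 10 FGF pathway genes, 1 was higher in A673 and 3 in SKNMC, and the median of -0.23 turned to 0.13 with ribosomal scaling (2 higher in SKNMC and 3 in A673). Of 5 members above 1 FPKM in both libraries, 1 was higher in SKNMC and 0 in A673, with a median of -0.05. FGF2 was at 5.34 FPKM in A673 and 0.235 in SKNMC and FGFR3 at 4.33 FPKM in A673 and 21.3 in SKNMC, while FGFR1 was equal, at 32.5 FPKM in A673 and 33.7 in SKNMC.

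In the IGF pathway, on which Ewing cells are known to depend, 7 of 14 genes were higher in SKNMC and 0 in A673. Of all genes, 14.8% and 8.43% were so called. The median of the list was -0.81. With ribosomal scaling, 5 were higher in SKNMC and 2 in A673, and the median was -0.40. Binding proteins, which hold IGFs away from their receptor, made up most of those called with DMSO. IGFBP4 was at 5.62 FPKM in A673 and 195 in SKNMC and IGFBP7 at 1.66 FPKM in A673 and 21.5 in SKNMC. IGFBP2 was the exception, at 335 FPKM in A673 and 235 in SKNMC, within 2-fold. The RNA-binding proteins IGF2BP2 and IGF2BP3 differed by 0.56 and 0.50.

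TGF-beta and BMP genes lay in both directions, 8 of 33 higher in A673 and 9 in SKNMC, and the median of -0.11 turned to 0.34 with ribosomal scaling (6 higher in SKNMC and 11 in A673). Of 25 members above 1 FPKM in both libraries, 5 were higher in SKNMC and 6 in A673, with a median of 0.02. The receptors differed in opposite ways. TGFBR2, given above, was higher in A673, and TGFBR1 was higher in SKNMC, at 1.31 FPKM in A673 and 7.80 in SKNMC. The ligands also differed, with TGFB2 at 11.8 FPKM in A673 and 1.33 in SKNMC and TGFB3 at 1.77 FPKM in A673 and 19.1 in SKNMC. BMP2 was at 0.0105 FPKM in A673 and 13.8 in SKNMC. The BMP target ID3 was the most abundant in SKNMC, at 174 FPKM in A673 and 308 in SKNMC, and FSTL1, a follistatin-like secreted protein, in A673, at 221 FPKM in A673 and 107 in SKNMC.

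WNT genes leaned to SKNMC, with 11 of 39 higher there and 2 higher in A673, against 14.8% and 8.43% of all genes. Their median was -0.60. Much of this lean depended on the scale and the filter: with ribosomal scaling, 8 were higher in SKNMC and 6 in A673. The median was then -0.18. Of 26 members above 1 FPKM in both libraries, 3 were higher in SKNMC and 1 in A673, with a median of -0.19. LEF1, a nuclear effector of beta-catenin, was at 0.0499 FPKM in A673 and 12.01 in SKNMC. The ligands WNT10A and WNT6, neighbours on chromosome 2, were at 0.483 FPKM in A673 and 11.6 in SKNMC for the former and 0.0362 FPKM in A673 and 5.12 in SKNMC for the latter. KREMEN1, a receptor of DKK proteins, was at 1.57 FPKM in A673 and 12.99 in SKNMC. Towards A673, the secreted antagonist FRZB was at 12.7 FPKM in A673 and 0.634 in SKNMC, and the receptor FZD4 at 59.99 FPKM in A673 and 23.98 in SKNMC. Beta-catenin itself, CTNNB1, was at 44.9 FPKM in A673 and 76.9 in SKNMC.

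Notch genes leaned the same way, with 8 of 19 higher in SKNMC and 1 in A673, against 14.8% and 8.43% of all genes. Their median was -0.70. Of 14 members above 1 FPKM in both libraries, 6 were higher in SKNMC and 1 in A673, with a median of -0.71. With ribosomal scaling the counts were nearly even, as 5 were higher in SKNMC and 4 in A673, and the median was -0.27. The ligands were split. JAG2 was at 2.18 FPKM in A673 and 25.9 in SKNMC and JAG1 at 15.2 FPKM in A673 and 5.78 in SKNMC. HES6, an antagonist of HES1, was at 4.10 FPKM in A673 and 23.6 in SKNMC, and HES1 itself at 48.5 FPKM in A673 and 39.5 in SKNMC. The feedback gene NRARP was at 1.82 FPKM in A673 and 9.37 in SKNMC. Hedgehog genes gave 4 of 10 higher in SKNMC and 1 in A673. Of 9 members above 1 FPKM in both libraries, 3 were higher in SKNMC and 1 in A673, with a median of -0.35. With ribosomal scaling, 2 were higher in SKNMC and 2 in A673. The coreceptors BOC and GAS1 were at 0.0260 FPKM in A673 and 6.27 in SKNMC for the former and 24.2 FPKM in A673 and 61.6 in SKNMC for the latter. SMO, the signal transducer, was at 9.49 FPKM in A673 and 21.1 in SKNMC, and GLI3 at 7.49 FPKM in A673 and 3.08 in SKNMC. The receptor and target PTCH1 differed by -0.13.

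Axon guidance genes were higher in SKNMC in 18 of 43 cases and in A673 in 4, against 14.8% and 8.43% of all genes. Their median was -0.62. Of 29 members above 1 FPKM in both libraries, 10 were higher in SKNMC and 2 in A673, with a median of -0.47. With ribosomal scaling, 14 were higher in SKNMC and 8 in A673, and the median was -0.15. The transmembrane semaphorin SEMA5B was at 0.850 FPKM in A673 and 32.05 in SKNMC, the ephrins EFNA1 at 0.811 FPKM in A673 and 13.04 in SKNMC and EFNA3 at 0.838 FPKM in A673 and 10.2 in SKNMC, and the receptor EPHB3 at 3.70 FPKM in A673 and 31.2 in SKNMC. A673 had other members in the lead. DCC, the netrin receptor, was at 23.5 FPKM in A673 and 0.972 in SKNMC, and the secreted semaphorins SEMA3D at 21.2 FPKM in A673 and 1.87 in SKNMC and SEMA3A at 8.29 FPKM in A673 and 0.408 in SKNMC. EPHA2 was also higher in A673, at 37.2 FPKM in A673 and 14.4 in SKNMC.

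Of 156 cytokine, chemokine and receptor genes, 38 were tested, 12 were higher in A673 and 13 in SKNMC, and the median of -0.15 turned to 0.24 with ribosomal scaling (8 higher in SKNMC and 14 in A673). Of 17 members above 1 FPKM in both libraries, 4 were higher in SKNMC and 4 in A673, with a median of 0.15. The TRAIL decoy receptor TNFRSF10D was at 24.95 FPKM in A673 and 0.0467 in SKNMC. The neutrophil chemokine IL8 (CXCL8) was at 16.5 FPKM in A673 and 0.393 in SKNMC, the receptor of IL-7, IL7R, at 9.63 FPKM in A673 and 0.382 in SKNMC, and TNFRSF12A, the receptor of TWEAK, at 186 FPKM in A673 and 25.8 in SKNMC. On the SKNMC side, IL32 was at 2.73 FPKM in A673 and 36.9 in SKNMC, TNFSF13B (BAFF) at 0.457 FPKM in A673 and 9.44 in SKNMC and CXCR4, the receptor of CXCL12, at 0.125 FPKM in A673 and 3.72 in SKNMC.

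Interferon-response genes were higher in SKNMC in 10 of 20 cases and in A673 in 0, against 14.8% and 8.43% of all genes, with a median of -0.93, the lowest of the lists with at least 5 genes tested. With ribosomal scaling, 7 were higher in SKNMC and 0 in A673, and the median was -0.56. Of 14 members above 1 FPKM in both libraries, 6 were higher in SKNMC and 0 in A673, with a median of -0.77. BST2 (tetherin), which holds budding virus at the membrane, was at 0.496 FPKM in A673 and 30.8 in SKNMC. The sensor of double-stranded RNA IFIH1 was at 0.398 FPKM in A673 and 8.98 in SKNMC, IFI6 at 7.98 FPKM in A673 and 32.8 in SKNMC, and the membrane protein IFITM1 at 23.6 FPKM in A673 and 88.3 in SKNMC. ISG15, a ubiquitin-like modifier, did not differ, at 30.9 FPKM in A673 and 30.7 in SKNMC. The genes on this list therefore did not move as a block.

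Interferon-stimulated genes are read through a response element with a core of GAAANNGAA. Of the 20 genes tested, 16 had an entry in the RefSeq promoter table, and 12 of them (75%) held the core on either strand, against 8.29% of all promoters of the table. The genes were put on the list for a known response to interferon, so this share follows from the choice. The promoters of the members with the largest differences are shown with matches in capitals, overlapping matches run together: BST2 (chr19:17405581-17405880, minus strand) with 2, IFIH1 (chr2:162318635-162318934, minus strand) with 4 and IFI6 (chr1:27672143-27672442, minus strand) with 3 matches.
BST2: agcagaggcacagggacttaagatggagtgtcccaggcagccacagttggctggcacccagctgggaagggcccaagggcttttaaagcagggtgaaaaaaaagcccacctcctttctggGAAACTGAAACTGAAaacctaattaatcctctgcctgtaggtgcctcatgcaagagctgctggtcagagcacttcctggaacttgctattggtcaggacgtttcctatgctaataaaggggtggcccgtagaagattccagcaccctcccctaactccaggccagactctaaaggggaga
IFIH1: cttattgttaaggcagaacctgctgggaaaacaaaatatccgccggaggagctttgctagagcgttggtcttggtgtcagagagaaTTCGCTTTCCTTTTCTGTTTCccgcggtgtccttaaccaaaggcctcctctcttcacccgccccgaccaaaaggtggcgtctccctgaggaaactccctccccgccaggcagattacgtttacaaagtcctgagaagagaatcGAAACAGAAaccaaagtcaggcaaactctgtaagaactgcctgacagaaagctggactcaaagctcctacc
IFI6: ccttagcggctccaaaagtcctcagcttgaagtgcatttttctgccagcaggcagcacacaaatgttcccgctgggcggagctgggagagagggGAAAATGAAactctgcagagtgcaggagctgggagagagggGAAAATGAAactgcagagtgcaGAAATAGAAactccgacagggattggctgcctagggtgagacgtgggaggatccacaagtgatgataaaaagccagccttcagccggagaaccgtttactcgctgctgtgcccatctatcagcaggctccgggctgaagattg

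MHC class I genes and their antigen-processing partners gave 5 of 15 higher in SKNMC and 0 in A673, against 14.8% and 8.43% of all genes, with a median of -0.83. With ribosomal scaling, 4 were higher in SKNMC and 0 in A673, and the median was -0.34. Of 14 members above 1 FPKM in both libraries, 4 were higher in SKNMC and 0 in A673, with a median of -0.68. HLA-B was at 3.63 FPKM in A673 and 47.4 in SKNMC and HLA-F at 0.461 FPKM in A673 and 10.96 in SKNMC. These genes are near-identical and highly variable between people, so reads can be lost or shared and their single values are uncertain. PSMB9, a subunit of the immunoproteasome, was at 1.01 FPKM in A673 and 18.1 in SKNMC. B2M, the light chain, lay slightly the other way, at 2371 FPKM in A673 and 1712 in SKNMC.

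Among tumour suppressors and cell cycle inhibitors, 7 of 25 were higher in SKNMC and 2 in A673, and the median of -0.10 turned to 0.35 with ribosomal scaling (7 higher in SKNMC and 3 in A673). Of 20 members above 1 FPKM in both libraries, 3 were higher in SKNMC and 2 in A673, with a median of -0.05. Besides CDKN2A, the CDK inhibitors CDKN1C and CDKN2C were at 0.355 FPKM in A673 and 7.61 in SKNMC for the former and 20.5 FPKM in A673 and 61.3 in SKNMC for the latter. CDKN1A, named above, and the death receptor FAS, at 16.1 FPKM in A673 and 6.85 in SKNMC, were the members higher in A673. RB1, the target of the CDKs, was equal, at 29.6 FPKM in A673 and 31.6 in SKNMC, as was MTAP, the neighbour of CDKN2A on chromosome 9, at 22.5 FPKM in A673 and 27.5 in SKNMC. Whether the low CDKN2A value of A673 goes with a change of the gene was not tested.

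The balance of proliferation genes depended on the scale. Of 26 tested, 4 were higher in A673 and 3 in SKNMC, with a median of 0.46. With ribosomal scaling, 12 were higher in A673 and 1 in SKNMC, with a median of 0.95. PCNA, the sliding clamp of replication, was at 338 FPKM in A673 and 264 in SKNMC, and the mitotic kinase PLK1 at 111 FPKM in A673 and 106 in SKNMC. CCNB1, the mitotic cyclin, was at 228 FPKM in A673 and 99.6 in SKNMC and thymidylate synthase, TYMS, at 261 FPKM in A673 and 105.4 in SKNMC. The E cyclins lay the other way, with CCNE1 at 2.26 FPKM in A673 and 18.6 in SKNMC and CCNE2 at 8.09 FPKM in A673 and 21.3 in SKNMC. TOP2A, which untangles chromosomes, was at 37.7 FPKM in A673 and 106 in SKNMC.

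Ribosomal protein genes had a median of -0.46 over 75 tested, which ribosomal scaling moves to 0.03 by its construction. They summed to 58942 FPKM in A673 and 82589 in SKNMC, and 6 were called higher in SKNMC. RPL23, RPL19 and RPL27, all on chromosome 17, were among these, and RPL23 was at 329 FPKM in A673 and 996 in SKNMC. With ribosomal scaling, 1 was higher in SKNMC and 1 in A673. Housekeeping genes had a median of 0.00 over 12 with a sign that turned to -0.04 when libraries were divided by the 75th percentile. Ribosomal scaling put it at 0.49 and called 2 higher in A673. GAPDH was at 3256 FPKM in A673 and 1879 in SKNMC, ACTB at 2374 FPKM in A673 and 1693 in SKNMC and PPIA at 2055 FPKM in A673 and 2089 in SKNMC.

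Imprinted and oncofetal genes lay in both directions. Of 16 tested, 4 were higher in A673 and 5 in SKNMC. Of 11 members above 1 FPKM in both libraries, 1 was higher in SKNMC and 3 in A673, with a median of 0.17. With ribosomal scaling, 4 were higher in SKNMC and 5 in A673. GRB10, an adaptor that restrains insulin and IGF receptors, was at 0.0149 FPKM in A673 and 18.7 in SKNMC. NDN (necdin) was at 0.0198 FPKM in A673 and 6.85 in SKNMC and the zinc finger gene PLAGL1 at 0.0481 FPKM in A673 and 7.06 in SKNMC. PEG3 was the reverse, at 3.33 FPKM in A673 and 0.00817 in SKNMC, and the hydrolase-fold gene MEST was at 9.54 FPKM in A673 and 2.63 in SKNMC. The architectural factors HMGA1 and HMGA2 lay in opposite directions, with HMGA1 at 82.3 FPKM in A673 and 186 in SKNMC and HMGA2 at 87.4 FPKM in A673 and 26.6 in SKNMC. PEG10 was equal, at 73.3 FPKM in A673 and 66.7 in SKNMC.

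**Figure D4:**
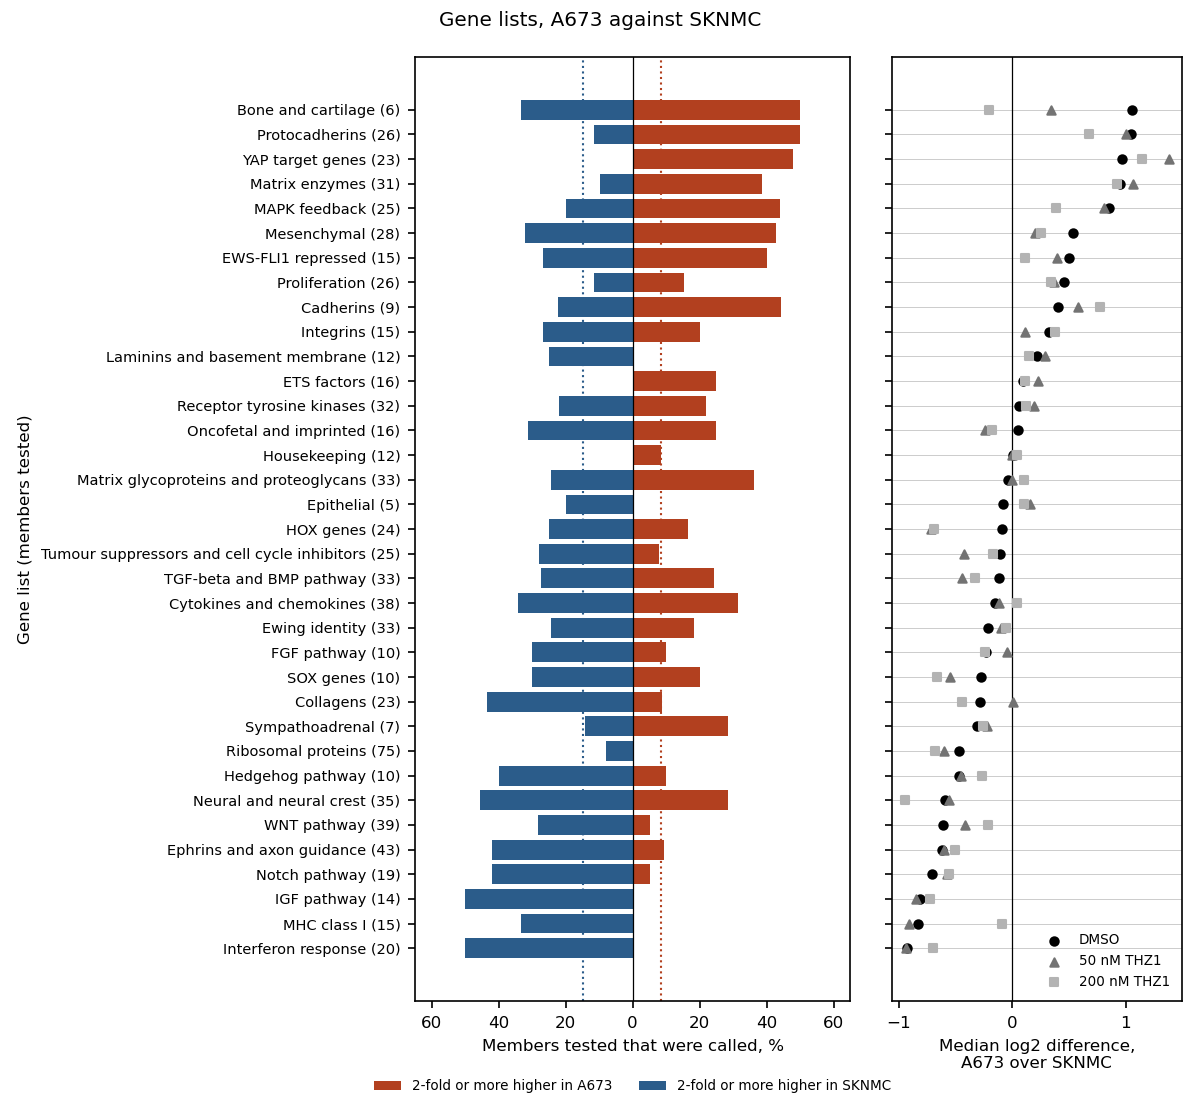
For each gene list with at least 5 genes tested, bars give the percent of tested members called 2-fold or more higher in A673 (right) or SKNMC (left), dotted lines the share of all genes (8.43% and 14.8%), and symbols the median log2 difference with DMSO and at each THZ1 dose. YAP target genes have no member higher in SKNMC, and interferon-response genes have none higher in A673, with either scaling; medians near 0, such as those of collagens, HOX and Ewing identity genes, turn sign with ribosomal scaling.

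Differences were not spread evenly over the genome. Chromosome 10 stood out, with a median of 0.56 over 468 genes, 118 of them higher in A673 and 26 in SKNMC. All 11 of its 10 Mb windows with at least 20 genes had a positive median. Chromosomes 3 and 1 had the lowest medians, at -0.40 and -0.40. With ribosomal scaling those became 0.05 and 0.05, still the lowest, while chromosome 10 rose to 1.00.

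Over 222 windows of 10 Mb, set by the start of each gene in the deposited hg19 coordinates, the lowest medians were on chromosome 4. The window from 50 to 60 Mb had a median of -1.11 over 26 genes, with 14 higher in SKNMC and 0 in A673. Its largest differences were those of KIT, given above, of IGFBP7, and of NMU (neuromedin U), with a difference of -1.82. The windows from 70 to 80 Mb and from 80 to 90 Mb had medians of -1.02 and -1.02. They hold the cyclin gene CCNG2, at 2.13 FPKM in A673 and 17.3 in SKNMC, PAQR3, at 7.16 FPKM in A673 and 26.9 in SKNMC, and the homeobox gene NKX6-1, at 2.09 FPKM in A673 and 26.2 in SKNMC. HERC5, an ISG15 ligase, was at 0.0530 FPKM in A673 and 6.22 in SKNMC. The window from 30 to 40 Mb of chromosome 17 came next, with a median of -0.97 over 101 genes, and the window after it stood at -0.84 over 150. RPL23, RPL19 and ERBB2, given above, start in the former. On the same chromosome the window from 0 to 10 Mb lay the other way, at 0.59. With ribosomal scaling, the chromosome 4 medians above became -0.69, -0.54 and -0.58. Those of chromosome 17 became -0.54, -0.45 and 1.05.

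The highest window was on chromosome 10 from 10 to 20 Mb, at 0.92 (1.36 with ribosomal scaling), with 16 of 35 genes higher in A673 and 0 in SKNMC. It holds NMT2, which attaches myristate, at 26.97 FPKM in A673 and 3.24 in SKNMC, and PROSER2, at 15.2 FPKM in A673 and 2.18 in SKNMC. The windows from 30 to 40 Mb and from 40 to 50 Mb of chromosome 11 followed, with medians of 0.87 and 0.82 (1.35 and 1.23 with ribosomal scaling). They hold CD44, FJX1, at 71.95 FPKM in A673 and 8.68 in SKNMC, RCN1, a calcium-binding protein of the endoplasmic reticulum, at 314 FPKM in A673 and 54.5 in SKNMC, and the proteasome subunit PSMC3, at 348 FPKM in A673 and 85.5 in SKNMC. Of 222 windows, 183 had a median of the same sign in all 3 pairs of libraries. Of the 43 windows with a median beyond 0.5 in either direction, 43 did so. Copy number was not measured here, and its part in these medians was not tested.

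**Figure D5:**
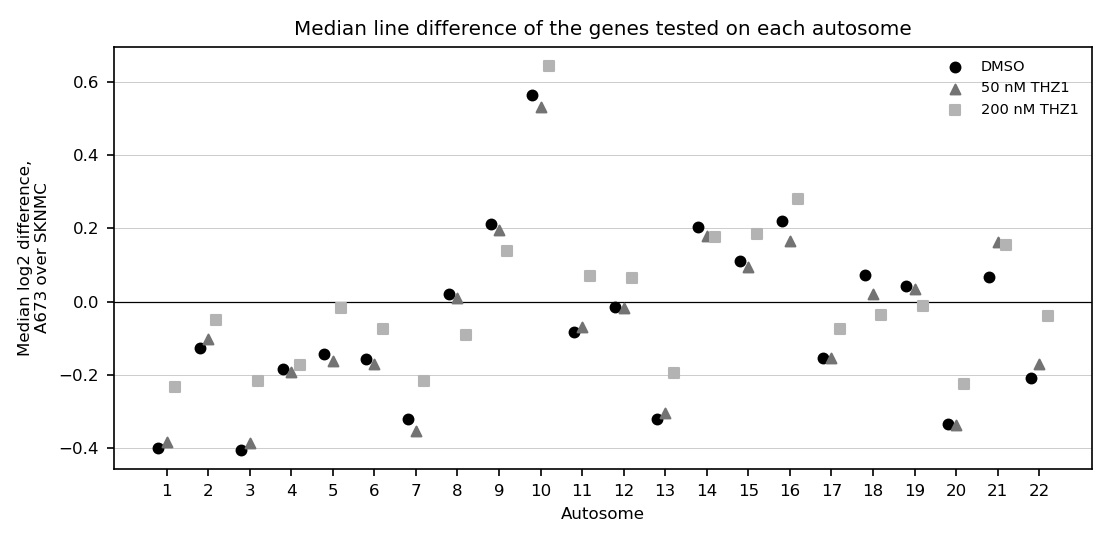
Symbols give the median log2 difference of A673 over SKNMC for the genes tested on each autosome, with DMSO and at 50 nM and 200 nM THZ1. Chromosome 10 lies highest in each pair of libraries, and chromosomes 1 and 3 lie lowest with DMSO, as they also do with ribosomal scaling.

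Long intergenic RNA genes were called more often than protein-coding genes. Of 394 tested, 100 were higher in SKNMC (25.4%) and 38 in A673 (9.64%), against 14.4% and 8.39% of 11561 protein-coding genes. ZNF667-AS1, antisense to a zinc finger gene, was at 0.105 FPKM in A673 and 26.7 in SKNMC, TPTEP1 at 0.0618 FPKM in A673 and 18.5 in SKNMC and CECR7 at 0.0552 FPKM in A673 and 17.7 in SKNMC. The largest difference towards SKNMC was that of a lincRNA gene known by a clone name alone, listed at 0 in A673 and at 26.03 FPKM in SKNMC. MIR4458HG was at 11.3 FPKM in SKNMC and listed at 0 in A673. On the A673 side CTD-2147F2.1 led, at 7.72 FPKM in A673 and 0.0963 in SKNMC, with RP11-6C14.1 at 8.75 FPKM in A673 and 0.451 in SKNMC and LINC01116 at 12.7 FPKM in A673 and 1.23 in SKNMC. LINC01116 (chr2:177494316-177502659, hg19) lies on the chromosome of the HOXD cluster but not directly beside it, with HOXD4 at chr2:177015949-177017954. HCG11 and RP11-768F21.1 also passed 2-fold, with differences of 2.63 and 2.73. Genes with low values were called more often, as given above, and the part of expression level in the lincRNA counts was not tested.

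The line differences were largely present in the THZ1 libraries of the same lines, which are other libraries and not replicates of the untreated state. With the dose of 50 nM, 1098 of the same genes were higher in A673 (9.18%) and 1521 were higher in SKNMC (12.7%). With 200 nM the counts were 1363 (11.4%) and 1391 (11.6%). Of the genes called higher in A673 with DMSO, 796 (78.97%) passed 2-fold the same way at 50 nM, 771 at 200 nM and 707 (70.1%) at both. Of those higher in SKNMC, 1227 (69.5%) did so at 50 nM, 1088 at 200 nM and 991 (56.1%) at both. Each of the 40 genes with the largest differences passed 2-fold the same way at both doses. Among them, MMP1 was at 1015 FPKM in A673 and 18.3 FPKM in SKNMC at 200 nM, and PENK at 30.9 and 2107 FPKM. CTGF kept the direction with a smaller gap, a difference of 2.71 at 200 nM, and ANKRD1 fell below 2-fold, at 0.78.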

How the data were processed

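RNA of A673 and SKNMC cells was sequenced by the authors with TruSeq libraries and 100-bp paired-end reads. According to the authors, reads were aligned to hg19 with STAR and Ensembl 75 genes, and the deposited FPKM were made with StringTie per the paper, while the submitters' notes name Cufflinks. No version was given. The authors' 4 columns of log2 fold change, for THZ1 against DMSO, were not used. Each of the 6 columns was taken as 1 library per the labels, and A673 was set against SKNMC with DMSO and at each THZ1 dose. The difference was log2 of the ratio of FPKM + 1, over autosomal genes above 1 FPKM in either DMSO library, and genes at 2-fold or more were called without a test. The 1074 genes of X, Y and the mitochondrial genome were left out. Where a symbol had more than 1 entry, the one with the highest mean FPKM was kept.

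The 37 gene lists were written from knowledge of the genes, and members and lists were chosen with earlier results of these data known. Genes were named by a rule: the Ewing identity genes, the 20 largest differences each way above 10 FPKM, up to 4 members of each list with the largest difference past 2-fold each way and the 4 highest in both lines, the 5 most different lincRNA genes each way, and the 3 most different genes of the 3 most extreme 10 Mb windows each way. Not matched among autosomal genes were L1CAM, NEFL, GATA1, PECAM1, HPRT1, PGK1, H19 and KCNQ1OT1, and TIGAR was found as C12orf5. Alternatives were other pseudocounts, filters, thresholds and scalings. Depth cannot be read from FPKM; among 1193 genes with low values in both DMSO libraries, the most frequent log2 ratio was 0 (9.56%). Of the genes tested, 47 were listed at 0 in A673 and 27 in SKNMC. The procedure was tested on simulated data, with python 3.11.15, pandas 2.3.3, numpy 2.4.6 and matplotlib 3.10.9.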

Additional observations from a re-analysis of the deposited data

Results flagged for a closer look

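For 2 Ewing identity genes the direction between the lines with DMSO was opposite to that in both THZ1 pairs, with a size of at least 0.5 in at least 1 pair. DKK2, the secreted WNT modulator, had a difference of -0.67 with DMSO, 0.02 at 50 nM and 0.86 at 200 nM. STEAP1, the cell-surface protein, had a difference of -0.25 with DMSO, 0.18 at 50 nM and 0.56 at 200 nM. FLI1 and APCDD1 had opposite directions too, with all values below that size: 0.20, -0.02 and -0.08 for FLI1 and -0.11, 0.38 and 0.06 for APCDD1. None of these values reached 2-fold, each rests on 1 library per line, and the difference between the pairs was not tested.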

How the results depend on the processing

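No paired analysis was possible because the untreated groups have 1 library each. The split of 1008 genes higher in A673 and 1765 higher in SKNMC became 533 and 650 with a pseudocount of 5, which shrinks differences of low values by its construction. Stricter filters test fewer genes. With more than 1 FPKM in both libraries, 710 were higher in A673 and 901 in SKNMC, so 44.1% of called genes were higher in A673. With more than 5 FPKM in either, 788 were higher in A673 and 1109 in SKNMC, a share of 41.5%. A 1.5-fold threshold gave 2111 and 3132 genes, and a 4-fold threshold 247 and 470, by construction. With ribosomal scaling the counts were 2198 and 1107 and the median of all genes was 0.35; the cause was not tested. A pseudocount of 0.1, no filter, protein-coding genes alone, a common sum, the 75th percentile and leaving out genes listed at 0 moved each count by under 1.5 times.

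Of the 373 genes named and tested, 52 fell under 2-fold with the pseudocount of 5 and 24 with ribosomal scaling, which brought 18 others past it. A reversal was counted where the sign changed and the value was past 2-fold before or after. Under the handlings of the DMSO libraries none of the named genes did so, although genes under 2-fold changed sign, as NPY5R did with ribosomal scaling. In the THZ1 pairs HOXC6 went from 0.00 to -1.06 at 50 nM, HOXD4 from 1.22 to -0.057 at 200 nM and FOSL1 from 3.10 to -0.39 at 200 nM, and the cause was not tested. List medians changed sign in 12 of 37 lists with ribosomal scaling, in 5 with the filter on both libraries, in 4 with the filter at 5 FPKM, in 2 with no filter and in 1 with the 75th percentile. Depth per library is unknown, so genes near 1 FPKM are the least certain.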

Other observations

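Above 10 FPKM in A673 and under 0.1 in SKNMC were 10 genes, and 27 genes had the reverse pattern. Other list members not described above were called too, at levels that do not meet those limits. COL19A1, of a fibril-associated collagen, was at 0.0395 FPKM in A673 and 6.44 in SKNMC, and GDF10, a BMP-like ligand, at 0.387 FPKM in A673 and 9.03 in SKNMC. FLT4, the receptor of VEGF-C, was at 0.185 FPKM in A673 and 3.62 in SKNMC. SGCE, an imprinted sarcoglycan gene, was at 30.8 FPKM in A673 and 13.7 in SKNMC.

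The differences describe 1 library of each line, and variation between cultures of a line was not measured. The lines came from different donors, and genotype, passage and culture history are not given. FPKM are shares of a library, and no spike-in was given for total RNA. Genes with close relatives or overlapping transcripts, such as HLA genes, GSTM4, AKR1C3 and clustered protocadherins, have the least certain values.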
